A study of Mus musculus with 8 samples.

Results

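The comparison described here asks how RNA levels of transferred CD4+ effector T cells from the spleen differed between hosts that lacked the bile acid transporter Asbt and hosts that had it. It uses 4 of the 8 libraries of the study: 2 from Asbt-/- hosts and 2 from Asbt+/+ hosts, chosen by the tissue and host in their labels and matched by the hairpin the cells carried. The other 4 libraries hold cells from the small intestine of the same kinds of host, and enter for the estimate of spread and where values of both tissues are set side by side.

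The Asbt-/- hosts were C57BL/6 mice with the genotype Rag1-/- Slc10a2 -/- (one label writes Asbt -/- for the second gene), and the Asbt+/+ hosts were C57BL/6 mice with the genotype Rag1-/- Slc10a2 +/+. Rag1 deficiency, which both kinds of host carry, leaves an animal without T and B cells of its own but with its other leukocytes. Both received congenic CD4+ T cells transduced with an LMPd retrovirus, and about 10000 CD4+ effector cells per library were sorted 6 weeks after transfer. In each host, 1 spleen library came from cells with a hairpin against Mdr1 (shMdr1) and 1 from cells with a hairpin against CD8 (shCD8), as given by the sample titles. A second label field names shMdr1 for every library, so the hairpin rests on the titles alone. The labels give 1 replicate per combination and do not say which libraries came from separate animals, so all p-values measure the spread between libraries, which may be technical. In the fit of all 8 libraries, that spread is how far the 2 hairpin pairs of a tissue disagree on the host difference. A host difference that depends on the hairpin would count there as noise, and the 2 pairs are not replicates of 1 condition.

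Asbt, encoded by Slc10a2, is the transporter that takes conjugated bile acids back up from the ileum, and its loss leaves more bile acid in the gut lumen and less returning to the liver. Mdr1, encoded in mice by Abcb1a and Abcb1b, is an efflux pump that helps effector T cells in the ileum tolerate bile acids. The spleen is a lymphoid organ outside that circulation route.

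The spleen libraries held 1821772 and 2100582 counts in Asbt-/- hosts, against 2250491 and 2135056 counts in Asbt+/+ hosts, in each case shMdr1 before shCD8, an order kept for all pairs of values below. A count was found for 12343 and 12324 genes in Asbt-/- libraries and for 13184 and 13043 genes in Asbt+/+ libraries. Levels are given as CPM, the count scaled to a common library size with TMM factors, on which 1 count is worth between 0.416 and 0.616 CPM in the 4 libraries. CPM is not corrected for transcript length, so levels are compared between libraries and not between genes. The libraries were made from amplified cDNA without molecular identifiers, so intervals on shares cover counting error only.

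Slc10a2 itself had 0 and 3 counts in the Asbt-/- libraries and 0 counts in both Asbt+/+ libraries. The counts are of transferred cells, whose own genotype at Slc10a2 the labels do not give, so they are no check of the host genotype. Markers of CD4 T cells were present in all 4 libraries. They summed to 7480 and 7575 CPM in Asbt-/- hosts, against 8485 and 8090.5 CPM in Asbt+/+ hosts. Cd4, the co-receptor itself, had 137 and 108 CPM in Asbt-/- hosts, against 134 and 139 CPM in Asbt+/+ hosts, and Cd3e, a chain of the T cell receptor complex, had 222 and 219.8 CPM in Asbt-/- hosts, against 154 and 199.9 CPM in Asbt+/+ hosts. The median log2 ratio of 15 such markers, Asbt-/- over Asbt+/+, was 0.10 in the shMdr1 pair and 0.06 in the shCD8 pair, with 7 higher and 5 lower in both pairs. With scaling to total counts in place of TMM, the median over these genes of the mean of both pair ratios was -0.12, against 0.08 with TMM; over all genes that scaling moves the medians to -0.26 and -0.13. Cd8a, the target of the control hairpin, had 0 counts in both Asbt-/- libraries and 38 in the Asbt+/+ libraries together, so it was at least 9.95-fold lower in Asbt-/- (a floor of 3 counts over the group). Cd8b1 had 3 counts in Asbt-/- libraries and 8 in Asbt+/+ libraries, a ratio of Asbt+/+ over Asbt-/- of 2.09 with a 95% counting interval of 0.503 to 12.3.

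The 2 kinds of host differed first in the make-up of their libraries. Mitochondrially encoded genes took 26.8% of the counts with shMdr1 (95% Wilson interval 26.72 to 26.85%) and 17.6% with shCD8 (17.55 to 17.65%) in Asbt-/- hosts, against 6.63% (6.59 to 6.66%) and 7.33% (7.30 to 7.37%) in Asbt+/+ hosts. Rn18s-rs5, which matches 18S ribosomal RNA, took 2.35% and 1.60% in Asbt-/- hosts, against 0.393% and 0.340% in Asbt+/+ hosts. Both Asbt-/- libraries lay above both Asbt+/+ libraries for each share. Hemoglobin genes did not follow the host: they took 3.69% and 0.109% in Asbt-/- hosts, against 0.228% and 0.554% in Asbt+/+ hosts, with the highest and the lowest share both in Asbt-/- hosts. In the small intestine the mitochondrial share was 8.62% and 7.27% in Asbt-/- hosts, against 18.3% and 7.06% in Asbt+/+ hosts, so a high share was not found in Asbt-/- hosts alone. Their part in the gene differences below was not tested.

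**Figure D1:**
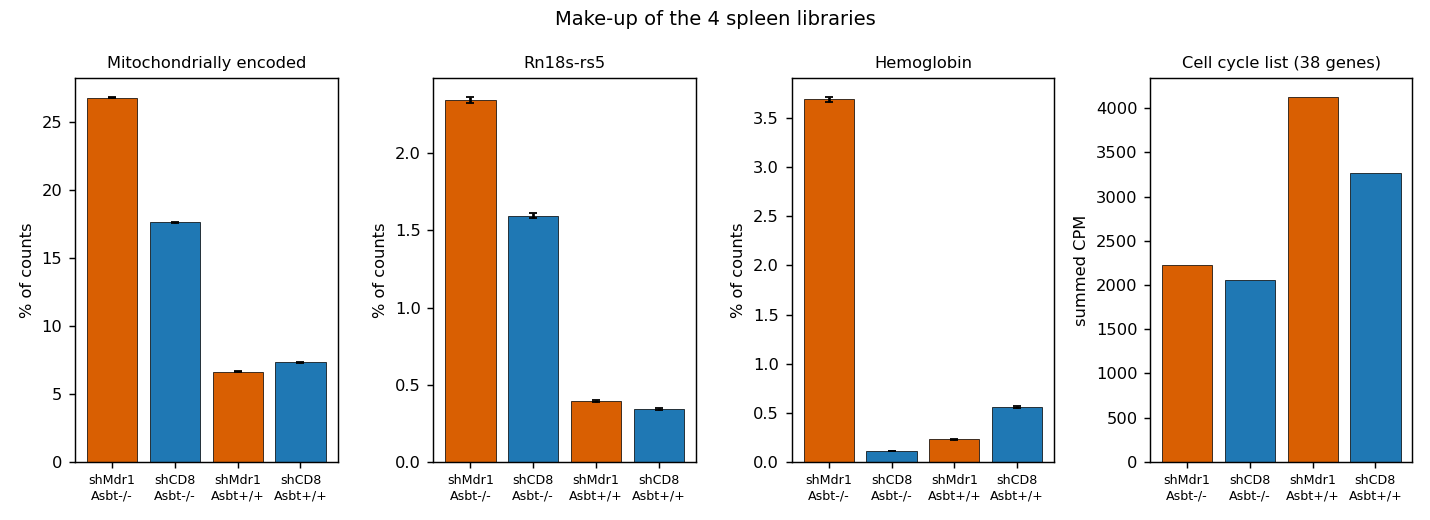
Share of counts from mitochondrially encoded genes, Rn18s-rs5 and hemoglobin genes, in % of counts, and summed level of the 38 tested cell cycle genes in CPM, for the 4 spleen libraries (orange shMdr1, blue shCD8; error bars are 95% Wilson intervals on the shares, counting error only). The first 2 shares are highest in the Asbt-/- libraries (26.8% and 17.6% mitochondrial), hemoglobin is high in shMdr1 Asbt-/- alone (3.69%), and the cell cycle sum is lowest in the Asbt-/- libraries (2229 and 2059 CPM).

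No gene passed the test of host in spleen. Of 10000 tested genes, 0 were higher and 0 lower in Asbt-/- (0% and 0% of tested genes) at an adjusted p under 0.05 by the edgeR quasi-likelihood test with Benjamini-Hochberg adjustment, where the smallest adjusted p was 1. At an unadjusted p under 0.05 there were 102 genes (1.02%), 50 higher and 52 lower (0.5% and 0.52%). By other tools on the same design, limma-voom called 0 and the DESeq2 Wald test 17. The DESeq2 calls were 12 genes higher in Asbt-/- (0.12%), namely 9 mitochondrially encoded genes, Rn18s-rs5, the predicted gene Gm23935 and Kdm6b, and 5 lower (0.05%), namely Reg3b, Reg3g, Ifitm1, S100a8 and Ccl1.

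The number of calls turned on which libraries set the spread. The edgeR common coefficient of biological variation was 0.674 over all 8 libraries, 0.302 among spleen libraries and 0.892 among small intestine libraries. When the 4 spleen libraries were fitted alone with hairpin and host, 155 of 8993 genes passed, 80 higher and 75 lower in Asbt-/- (0.89% and 0.834%), on 1 residual degree of freedom. Without the hairpin term that count was 3. In fits that left out any 1 small intestine library, 143 to 146 genes passed, and in fits that left out any 1 spleen library, 1 to 7. Calls of the fit on the 4 spleen libraries alone are given below beside the main gene lists. They are to be read against its shares over all genes, 0.89% higher and 0.834% lower.

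The 2 hairpin pairs give a second, untested view. The log2 ratio of Asbt-/- over Asbt+/+ had the same sign in both pairs for 2708 genes higher in Asbt-/- (27.1%) and 2874 lower (28.7%), while 4290 genes had opposite signs (42.9%). A difference of at least 2-fold in both pairs, with at least 20 CPM in both libraries of the higher host, was found for 62 genes higher (0.62%) and 68 lower (0.68%) in Asbt-/-. Under the same rule 29 genes (0.29%) were 2-fold apart in opposite directions. Both Asbt-/- libraries lay above both Asbt+/+ libraries for 1873 genes (18.7%) and below both for 1983 genes (19.8%). Those shares apply to every gene below whose hosts did not overlap. The 62 genes shared 34 with the 80 called higher by the spleen libraries alone, which is 54.8% of the 62 and 42.5% of the 80. The 68 shared 38 with the 75 called lower, which is 55.9% of the 68 and 50.7% of the 75.

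**Figure D2:**
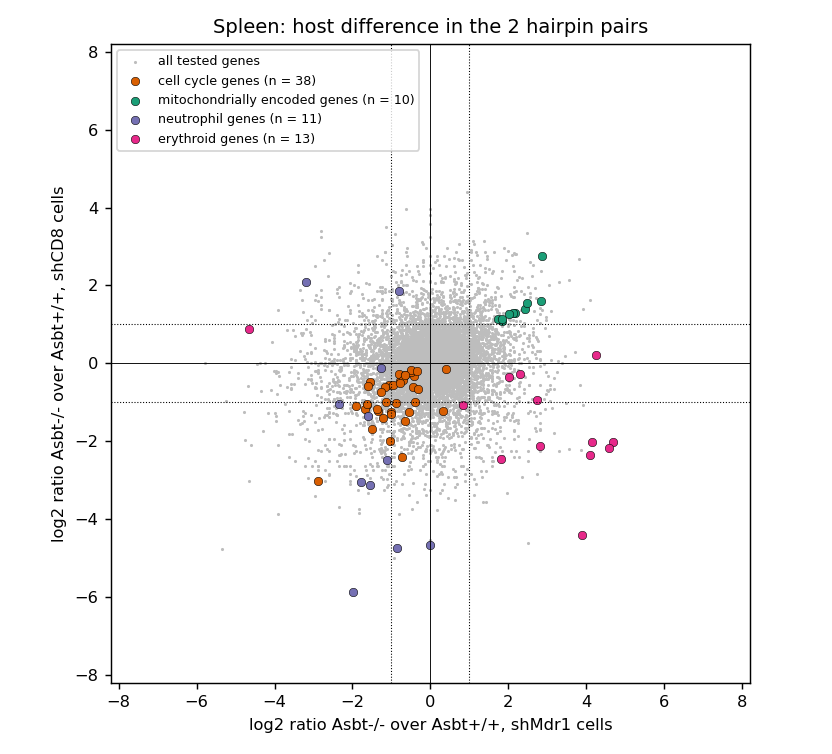
Each point is a tested gene, with its log2 ratio of Asbt-/- over Asbt+/+ in the shMdr1 pair on the x axis and in the shCD8 pair on the y axis; dotted lines mark 2-fold. Cell cycle genes (orange) lie in the lower left save 2 of 38, the 10 mitochondrially encoded genes (green) in the upper right, neutrophil genes (violet) mostly in the lower left, and 12 of 13 erythroid genes (pink) have opposite signs in the 2 pairs.

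Mitochondrially encoded genes, which specify subunits of the respiratory chain and the RNAs of the mitochondrial ribosome, stood higher in Asbt-/- hosts. All 10 tested members were higher in both pairs, with both Asbt-/- libraries above both Asbt+/+ libraries (18.7% of all tested genes did so), and 9 met the 2-fold rule. Another 5 listed members could not be tested. Of these, mt-Atp6, mt-Atp8, mt-Co3 and mt-Nd4l had 0 counts in all 4 spleen libraries, and mt-Co2 had 1 count in total. Why they lacked counts was not tested, and the mitochondrial shares do not cover them. Median log2 ratios were 2.14 in the shMdr1 pair and 1.29 in the shCD8 pair, beside -0.02 and -0.01 over all tested genes. mt-Nd5, a subunit of complex I, had 4474 CPM with shMdr1 and 2469 CPM with shCD8 in Asbt-/- hosts, against 822 and 946 CPM in Asbt+/+ hosts (log2 1.91 ± 0.40, edgeR unadjusted p = 0.0022). mt-Nd2, another complex I subunit, had 11101 and 6999.9 CPM in Asbt-/- hosts, against 2457 and 2874 CPM in Asbt+/+ hosts (log2 1.73 ± 0.39). The small ribosomal RNA mt-Rnr1 had 38505 and 22222 CPM in Asbt-/- hosts, against 5339 and 7367 CPM in Asbt+/+ hosts (log2 2.22 ± 0.56). Among these genes the shMdr1 Asbt-/- library was the highest in each case. mt-Nd6, the complex I subunit encoded on the opposite strand from the others, had 6307 and 3804 CPM in Asbt-/- hosts, against 1768 and 1801 CPM in Asbt+/+ hosts. Reads of that gene and of its antisense cannot be told apart where the strand setting is not known. The fit on spleen libraries alone called 9 of the 10, beside 0.89% of all genes called higher there.

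Transcripts of the nucleus for the same respiratory chain stood the other way. Of 32 tested nuclear genes for respiratory chain subunits, 19 were lower and 5 higher in both pairs, with medians of -0.40 and -0.19, and 0 were called by either edgeR fit. Cox6c, a subunit of cytochrome c oxidase, had 1306 and 2312 CPM in Asbt-/- hosts, against 2524 and 3125 CPM in Asbt+/+ hosts. Atp5j, a subunit of ATP synthase, had 1394 and 1689.8 CPM in Asbt-/- hosts, against 2592 and 2262 CPM in Asbt+/+ hosts (log2 -0.66 ± 0.35). For both genes the Asbt-/- libraries lay below the Asbt+/+ libraries. The median over the list of the mean of both pair ratios was -0.27 without mitochondrial, hemoglobin and Rn18s-rs5 counts, against -0.28 with them. That setting only rescales the other genes and does not test the part of the mitochondrial share. With total counts, which moved the median of all genes by -0.26 and -0.13 in the 2 pairs, the list median was -0.47.

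Genes of the cell cycle stood lower in Asbt-/- hosts. Of 38 tested members, 36 were lower in both pairs and 0 higher in both, with both Asbt-/- libraries below both Asbt+/+ libraries for 31 (19.8% of all tested genes did so). The summed level of the list was 2229 and 2059 CPM in Asbt-/- hosts, against 4131 and 3271 CPM in Asbt+/+ hosts. Medians were -0.92 in the shMdr1 pair and -0.86 in the shCD8 pair. The mitochondrial share was high and neutrophil and macrophage markers were low in the same 2 libraries, and their part in this result was not tested. Without mitochondrial, hemoglobin and Rn18s-rs5 counts, the median of the mean of both ratios was -0.92, as with them. That setting only rescales the other genes, so it does not test the part of the mitochondrial share. The list runs from DNA synthesis to division, and the members with the smallest p values come from both ends.

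Among genes of DNA synthesis, Rrm2, the small subunit of ribonucleotide reductase, had 67.7 CPM with shMdr1 and 64.6 CPM with shCD8 in Asbt-/- hosts, against 175 and 151 CPM in Asbt+/+ hosts (log2 -1.29 ± 0.44, edgeR unadjusted p = 0.023). The 2 Asbt-/- values were nearly equal and far below both Asbt+/+ values. Cdc45, part of the helicase that opens DNA for replication, had 4 and 3 counts in Asbt-/- libraries and 58 and 42 in Asbt+/+ libraries. Cdk2, a kinase of entry into S phase, had 6.77 and 7.66 CPM in Asbt-/- hosts, against 25.8 and 23.6 CPM in Asbt+/+ hosts, at which level single counts weigh.

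Among genes of mitosis, Birc5, encoding survivin of the chromosomal passenger complex, had 240.1 and 145 CPM in Asbt-/- hosts, against 485 and 347 CPM in Asbt+/+ hosts (log2 -1.14 ± 0.36). Ccna2, encoding cyclin A2, had 49.2 and 26.8 CPM in Asbt-/- hosts, against 115 and 72.2 CPM in Asbt+/+ hosts (log2 -1.33 ± 0.54). Top2a, the topoisomerase that untangles chromosomes before division, had 89.9 and 79 CPM in Asbt-/- hosts, against 199 and 159 CPM in Asbt+/+ hosts (log2 -1.08 ± 0.46). In all 3, both Asbt-/- libraries lay below both Asbt+/+ libraries, and within each host the shMdr1 library was the higher. Cdk1, the main mitotic kinase, had 22.8 and 31.6 CPM in Asbt-/- hosts, against 87.4 and 68.8 CPM in Asbt+/+ hosts. Nusap1, a spindle protein gene, had 28.9 and 21.5 CPM in Asbt-/- hosts, against 89.9 and 65.4 CPM in Asbt+/+ hosts, and Cenpf, a kinetochore protein gene, had 9.85 and 9.1 CPM in Asbt-/- hosts, against 29.6 and 31.4 CPM in Asbt+/+ hosts. The fit on spleen libraries alone called 9 of 37 members, all lower, beside 0.834% of all genes called lower there. They were Birc5, Ccna2, Cdc45, Cdk1, Kif11, Mcm3, Rrm2, Top2a and Ube2c. In each of 17 fits, with the libraries or scaling changed, 36 to 38 of 37 to 39 tested members had a negative log2 value. These fits are not separate tests of the direction, because all draw on the same spleen libraries. Leaving out small intestine libraries hardly moved the spleen value, which stayed at -1.33 for Ccna2. With 36 of 38 members lower in both pairs, leaving out a spleen library could hardly turn their sign.

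The promoters of such genes are known for CCAAT boxes, bound by NF-Y, and for CHR elements (TTTGAA or TTCGAA), where the DREAM and MMB complexes bind. A RefSeq promoter was found for 32 of the 38 tested members, with 33 promoters in all. In the 250 bases before the start, a CCAAT on either strand was present in 27 of 33 (81.8%), beside 33.9% of 32851 promoters of all genes. TTTGAA on either strand was present in 30.3% of them, beside 16.0% of all promoters, and TTCGAA, which reads the same on both strands, in 9.09%, beside 1.34%. A CCAAT with either CHR form was present in 36.4%, beside 6.02%. These are matches of letters, not binding, and the difference in expression was not tested against them. The 3 promoters below are shown because their genes were lower in Asbt-/- hosts in both pairs and they differ in these elements. They are RefSeq sequences of build GRCm38.p6, whereas the deposited counts were made on mm9, and each gives the 250 bases before the gene's start, 5′ to 3′ on the gene's strand. Capitals mark CCAAT (or ATTGG on the other strand), TTTGAA (or TTCAAA) and TTCGAA. Top2a lies at chr11:99024190-99024439 on the minus strand and has 6 CCAAT, 2 TTTGAA and 2 TTCGAA matches. Cdk1 lies at chr10:69352913-69353162 on the minus strand and has 3 CCAAT and 2 TTTGAA matches. Rrm2 lies at chr12:24708004-24708253 on the plus strand and has 1 CCAAT match and neither CHR form.
Top2a: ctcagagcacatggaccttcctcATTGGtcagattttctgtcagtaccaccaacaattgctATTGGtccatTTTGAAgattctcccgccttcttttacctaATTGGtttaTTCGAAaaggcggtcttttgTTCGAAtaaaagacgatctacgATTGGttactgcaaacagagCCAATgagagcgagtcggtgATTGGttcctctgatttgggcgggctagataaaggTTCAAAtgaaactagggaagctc
Cdk1: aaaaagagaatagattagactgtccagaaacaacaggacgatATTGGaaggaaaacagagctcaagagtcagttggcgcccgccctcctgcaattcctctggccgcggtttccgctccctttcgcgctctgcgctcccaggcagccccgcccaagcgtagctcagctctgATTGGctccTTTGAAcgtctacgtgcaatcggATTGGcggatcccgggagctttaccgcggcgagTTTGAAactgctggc
Rrm2: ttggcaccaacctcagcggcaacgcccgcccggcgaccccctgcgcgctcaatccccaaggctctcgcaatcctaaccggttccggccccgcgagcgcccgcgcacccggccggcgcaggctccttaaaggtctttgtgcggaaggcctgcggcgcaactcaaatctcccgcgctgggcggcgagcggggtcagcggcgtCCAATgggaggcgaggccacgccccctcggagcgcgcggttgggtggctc

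The cell cycle list stood the other way in the small intestine. There 25 of the 38 members were higher in both pairs and 0 lower in both (32.4% and 18.4% of all tested genes), with medians of 1.33 and 1.83, beside 0.01 and 0.53 over all tested genes. The test of the difference between tissues, spleen minus small intestine in the edgeR fit, gave 0 of 10000 genes at an adjusted p under 0.05 (0%), with a smallest adjusted p of 0.937, and 431 at an unadjusted p under 0.05 (4.31%). Of the 38 members, 19 were among these 431. Ccna2 had log2 ratios of -1.21 in the shMdr1 pair and -1.40 in the shCD8 pair in spleen, against 3.53 and 3.84 in small intestine. Rrm2 had -1.36 in the shMdr1 pair and -1.21 in the shCD8 pair in spleen, against 2.13 and 0.99 in small intestine. The 2 small intestine Asbt+/+ libraries had 11486 and 8456 genes with a count, so the shCD8 one was the least complex of the 8 libraries.

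**Figure D3:**
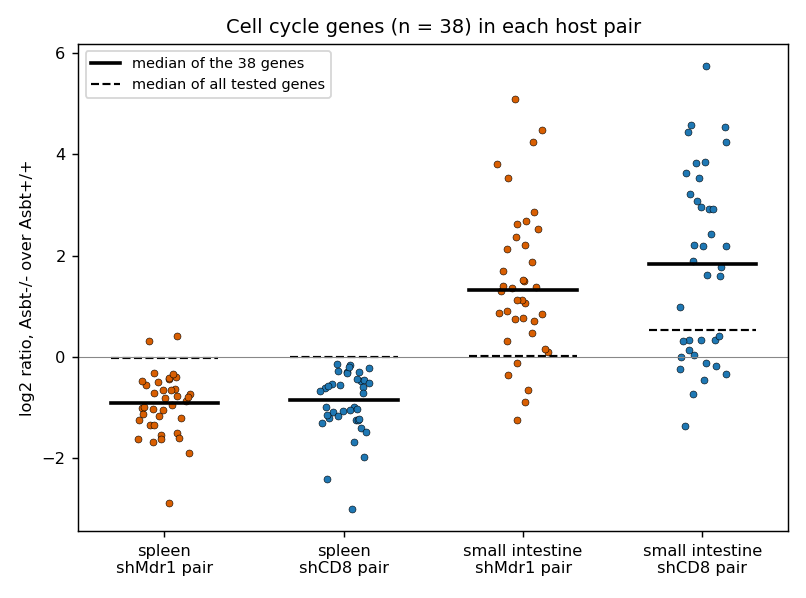
Log2 ratio of Asbt-/- over Asbt+/+ for each of the 38 tested cell cycle genes in the 4 host pairs; thick lines mark the median of the 38 and dashed lines the median of all tested genes. The medians are -0.92 and -0.86 in the spleen pairs and 1.33 and 1.83 in the small intestine pairs.

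Replication-dependent histone genes, whose transcripts rise in S phase and mostly lack a poly(A) tail, stood lower less uniformly: 10 of 19 tested were lower and 1 higher in both pairs, with medians of -0.26 and -0.59. Ribosomal protein genes were lower in both pairs for 26 of 33 and higher for 1, with medians of -0.39 and -0.19. Rps4x, of the small subunit, had 659.9 and 956 CPM in Asbt-/- hosts, against 1155 and 1202 CPM in Asbt+/+ hosts, and Rpl5, of the large subunit, had 393 and 548 CPM in Asbt-/- hosts, against 633 and 644 CPM in Asbt+/+ hosts. The shMdr1 Asbt-/- library was the lowest for both. Glycolysis genes were lower in both pairs for 8 of 18 and higher for 2, with medians of -0.25 and -0.12. None of these 3 lists had a member called by either edgeR fit.

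Among cytotoxic granule genes, which effector T cells and NK cells use to kill, 10 of 16 were lower and 2 higher in both pairs, with medians of -0.56 and -0.57. Gzmb, encoding granzyme B, had 33.2 CPM with shMdr1 and 72.3 CPM with shCD8 in Asbt-/- hosts, against 126 and 182 CPM in Asbt+/+ hosts (log2 -1.62 ± 0.37, edgeR unadjusted p = 0.0032). Both Asbt-/- values lay below both Asbt+/+ values, and within each host the shCD8 library was the higher. Nkg7, a granule membrane protein gene, had 554 and 404 CPM in Asbt-/- hosts, against 1641 and 599 CPM in Asbt+/+ hosts. Gzma, encoding granzyme A, had 69.6 and 104 CPM in Asbt-/- hosts, against 1024 and 154 CPM in Asbt+/+ hosts, so most of its difference lay in the shMdr1 Asbt+/+ library. Gzmk, encoding granzyme K, had 28.3 and 40.2 CPM in Asbt-/- hosts, against 49.9 and 72.7 CPM in Asbt+/+ hosts in spleen, while its ratios in small intestine were 2.98 and 3.42 (edgeR unadjusted p of the difference 0.00097). Gzma, Gzmb, Klrd1 and Nkg7 were called lower by the spleen libraries alone, 4 of 14 tested there, beside 0.834% of all genes. NK and innate lymphoid markers summed to 192 and 357 CPM in Asbt-/- hosts, against 1416 and 404 CPM in Asbt+/+ hosts, so they too were highest in shMdr1 Asbt+/+. Of the markers that define NK cells, Ncr1 had 0 counts in all 4 libraries, Klrb1c had 9 and 0 in Asbt-/- libraries and 4 and 4 in Asbt+/+ libraries, and Klra8 had 0 and 0 in Asbt-/- libraries and 0 and 10 in Asbt+/+ libraries. Fcer1g and Gzma were the 2 of 8 tested NK and innate lymphoid markers that the spleen libraries alone called, both lower. The part of such cells in these differences was not tested. In bulk RNA, fewer cells of a type and less RNA per cell cannot be told apart.

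Chemokine ligand genes were lower in both pairs for 8 of 14 and higher for 1, with medians of -0.71 and -0.68. Ccl1, a ligand of CCR8, had 3.69 CPM with shMdr1 and 37.3 CPM with shCD8 in Asbt-/- hosts, against 17.1 and 187 CPM in Asbt+/+ hosts (log2 -2.27 ± 0.52, edgeR unadjusted p = 0.0033). It was lower in Asbt-/- within each pair, but the hairpin pairs stood so far apart that the hosts overlapped. Ccl5, made by effector and cytotoxic T cells, had 1711 and 2005 CPM in Asbt-/- hosts, against 3179 and 3183 CPM in Asbt+/+ hosts, and Ccl3, an inflammatory chemokine, had 8.62 and 31.1 CPM in Asbt-/- hosts, against 71.6 and 66.6 CPM in Asbt+/+ hosts. The hosts did not overlap for these genes, as for 19.8% of all tested genes in that direction. Ccl6, a chemokine of myeloid cells, had 8 and 3 counts in Asbt-/- libraries and 69 and 26 in Asbt+/+ libraries. The spleen libraries alone called Ccl1, Ccl3 and Ccl6 lower, 3 of 9 tested there, beside 0.834% of all genes.

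Type 1 helper genes were lower in both pairs for 10 of 20 and higher for 0, with medians of -0.63 and -0.31. The list shares Nkg7, Ccl3 and Ccl5 with those above, and the genes that define the programme gave no common direction. Ifng, its main cytokine, had 217 and 419 CPM in Asbt-/- hosts, against 592 and 318 CPM in Asbt+/+ hosts, lower in Asbt-/- with shMdr1 and higher with shCD8. Tbx21, encoding its master regulator T-bet, had 29.5 and 14.4 CPM in Asbt-/- hosts, against 35.4 and 11.6 CPM in Asbt+/+ hosts. Tnf had 127 and 111 CPM in Asbt-/- hosts, against 96.2 and 121 CPM in Asbt+/+ hosts. Cxcr6, a chemokine receptor of tissue effector cells, had 127 and 197 CPM in Asbt-/- hosts, against 306 and 247 CPM in Asbt+/+ hosts. For Cxcr6, both Asbt-/- libraries lay below both Asbt+/+ libraries, as for 19.8% of all tested genes. Ccr9, the gut homing receptor, had 14.2 and 4.79 CPM in Asbt-/- hosts, against 11.7 and 38.7 CPM in Asbt+/+ hosts, where the shCD8 pair carried the difference.

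Type 17 helper genes had no common direction, with 7 of 19 higher and 3 lower in both pairs and medians of 0.71 and -0.04. Il17a, the defining cytokine, had 139.7 and 274 CPM in Asbt-/- hosts, against 136 and 396 CPM in Asbt+/+ hosts, and the hosts overlapped. Il22, a cytokine that acts on epithelium, had 354 and 685 CPM in Asbt-/- hosts, against 208 and 571 CPM in Asbt+/+ hosts, higher in Asbt-/- within each pair. Reads of Il22 can also match its near copy Iltifb. Levels of Il17a and Il22 separated the hairpins more than the hosts. The spleen libraries alone called 1 of 18 members, Lgals3, encoding the lectin galectin-3, which had 92.9 and 99.6 CPM in Asbt-/- hosts, against 286 and 112 CPM in Asbt+/+ hosts, lower in Asbt-/- and mostly so in the shMdr1 pair.

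In the type 2 list, 2 of 9 were higher and 3 lower in both pairs. Gata3, its master regulator, had 196 and 289 CPM in Asbt-/- hosts, against 130.3 and 235 CPM in Asbt+/+ hosts. Plac8, a list member that myeloid and lymphoid cells also express, had 54.8 and 82.4 CPM in Asbt-/- hosts, against 311 and 176 CPM in Asbt+/+ hosts (log2 -1.79 ± 0.46) and was the 1 member called by the spleen libraries alone. Among regulatory T cell markers, 7 of 15 were lower and 3 higher in both pairs, with medians of -0.28 and -0.40. Foxp3, the lineage regulator, had 6.16 and 23 CPM in Asbt-/- hosts, against 4.99 and 28.8 CPM in Asbt+/+ hosts, without a common direction. Ikzf2, encoding Helios, had 36.3 and 84.3 CPM in Asbt-/- hosts, against 85.3 and 158 CPM in Asbt+/+ hosts, and Il2ra, encoding the high-affinity interleukin-2 receptor chain CD25, had 4.31 and 25.4 CPM in Asbt-/- hosts, against 12.9 and 46.9 CPM in Asbt+/+ hosts. Both were lower in Asbt-/- within each pair, and Ikzf2 was the 1 of 14 regulatory markers called lower by the spleen libraries alone (log2 -1.06, edgeR adjusted p = 0.018). Il10 was thinly covered, with 10 and 20 counts in Asbt-/- libraries and 19 and 52 in Asbt+/+ libraries.

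**Figure D4:**
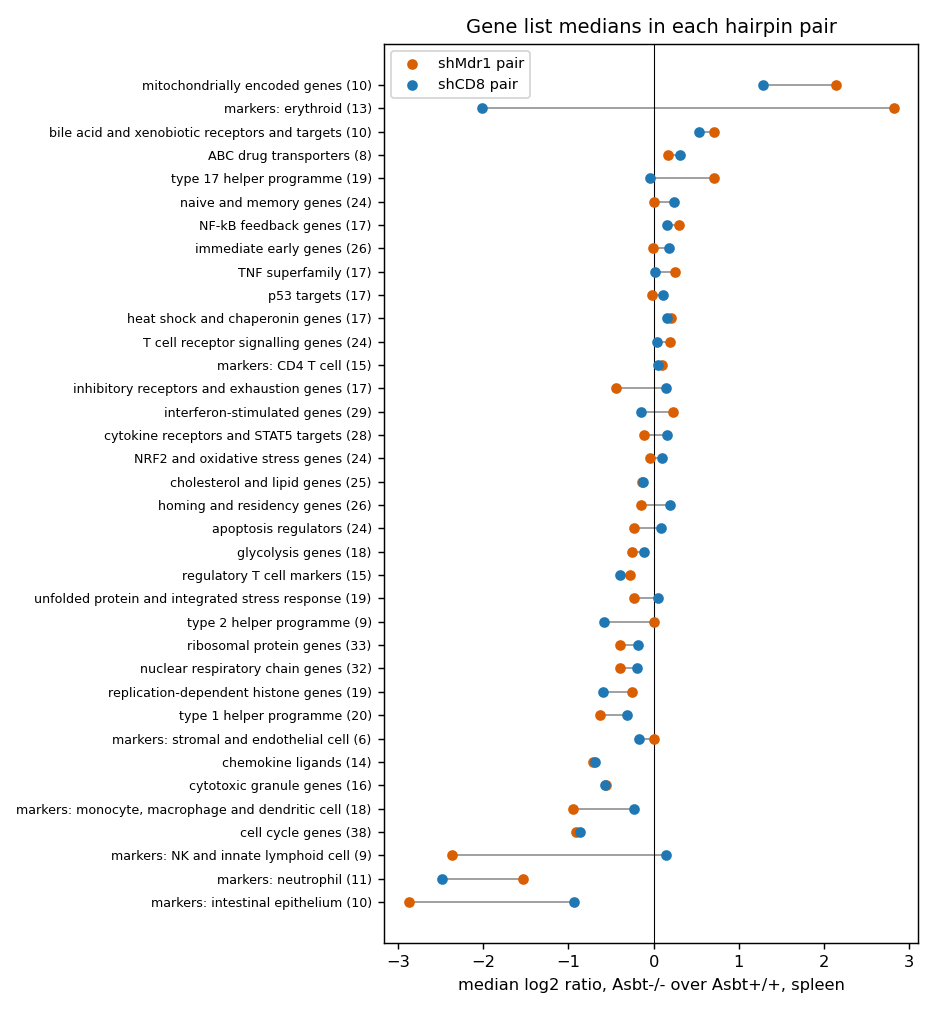
Median log2 ratio of Asbt-/- over Asbt+/+ in spleen for each gene list with at least 5 tested members (number in brackets), in the shMdr1 pair (orange) and the shCD8 pair (blue). Mitochondrially encoded genes lie farthest right of the lists with 1 sign in both pairs (2.14 and 1.29), cell cycle genes at -0.92 and -0.86, and the erythroid list at 2.82 and -2.01 in opposite directions.

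Receptors for bile acids and other small molecules, with their targets, are of interest because the hosts differ in bile acid recovery. Of 23 listed genes only 10 had enough counts to be tested, of which 6 were higher and 0 lower in both pairs, with medians of 0.71 and 0.53 and 0 called. Nr1h4, encoding the bile acid receptor FXR, had 0 counts in both Asbt-/- libraries and 6 and 2 in Asbt+/+ libraries, and Gpbar1, encoding the membrane receptor TGR5, had 0 and 2 in Asbt-/- libraries and 1 and 0 in Asbt+/+ libraries. Ahr, the aryl hydrocarbon receptor, had 58.5 and 38.3 CPM in Asbt-/- hosts, against 35.4 and 32.2 CPM in Asbt+/+ hosts, with the hosts apart. Rora, a nuclear receptor of the type 17 programme, had 239 and 399 CPM in Asbt-/- hosts, against 241 and 229 CPM in Asbt+/+ hosts, where the shCD8 Asbt-/- library alone was high. Nr1d1, encoding the clock repressor REV-ERBa, had 18 and 19 counts in Asbt-/- libraries and 6 and 3 in Asbt+/+ libraries.

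ABC transporters of drugs and lipids gave 3 of 8 higher and 0 lower in both pairs. Abcb1a, the target of shMdr1, had 22.2 and 29.7 CPM in Asbt-/- hosts, against 18.7 and 40.8 CPM in Asbt+/+ hosts. Its shMdr1 libraries were the lower in each host, and the hosts overlapped. Abcb1b, its near copy, had 7 and 18 counts in Asbt-/- libraries and 13 and 8 in Asbt+/+ libraries, and reads of the 2 genes may be split by the counting.

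NF-kB feedback genes were higher in both pairs for 10 of 17 and lower for 2, with medians of 0.29 and 0.16. Nfkbid, encoding a nuclear IkB protein, had 154 and 113 CPM in Asbt-/- hosts, against 78.3 and 55.5 CPM in Asbt+/+ hosts (log2 1.00 ± 0.37) and was called higher by the spleen libraries alone. Rela, encoding the p65 subunit, had 85.6 and 70.9 CPM in Asbt-/- hosts, against 37.9 and 52.9 CPM in Asbt+/+ hosts. Ikbke, an IkB kinase gene, had 279 and 104 CPM in Asbt-/- hosts, against 99.1 and 92.9 CPM in Asbt+/+ hosts, with 1 high library, shMdr1 Asbt-/-. Of 29 tested interferon-stimulated genes 9 were higher and 7 lower in both pairs. Ifitm1, an interferon-induced membrane protein gene, had 88 and 16.3 CPM in Asbt-/- hosts, against 1383 and 42.6 CPM in Asbt+/+ hosts. Its level in shMdr1 Asbt+/+ stood far above the other 3 libraries, and the hosts overlapped. The spleen libraries alone called it lower, as 1 of 29.

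Across the remaining lists, higher and lower in both pairs were 11 and 4 of 26 immediate early genes, 12 and 5 of 24 T cell receptor signalling genes, 11 and 3 of 24 naive and memory genes, and 9 and 4 of 17 heat shock and chaperonin genes. The same counts were 8 and 5 of 28 cytokine receptors and STAT5 targets, 5 and 3 of 17 TNF superfamily genes, 3 and 4 of 17 inhibitory receptors and 6 and 7 of 26 homing and residency genes. They were 7 and 5 of 24 NRF2 and oxidative stress genes, 5 and 7 of 19 unfolded protein response genes, 5 and 4 of 17 p53 targets, 7 and 8 of 24 apoptosis regulators and 4 and 7 of 25 cholesterol and lipid genes. The inhibitory receptor list shares Ikzf2, which the spleen libraries alone called lower.

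Among single genes that met the 2-fold rule, Kdm6b, encoding the histone H3K27 demethylase JMJD3, stood out on the side of Asbt-/-. It had 257 CPM with shMdr1 and 134 CPM with shCD8 in Asbt-/- hosts, against 61.2 and 38.3 CPM in Asbt+/+ hosts (log2 1.94 ± 0.39, edgeR unadjusted p = 0.0017). Both Asbt-/- libraries lay above both Asbt+/+ libraries, and the ratios in small intestine were -0.04 and 1.09. Jmjd1c, of the same family of demethylase domains and named after its values were seen, had 163 and 123 CPM in Asbt-/- hosts, against 65.8 and 51.6 CPM in Asbt+/+ hosts (log2 1.28 ± 0.33). Tcof1, encoding the nucleolar factor treacle, had 142 and 96.2 CPM in Asbt-/- hosts, against 52.4 and 31.4 CPM in Asbt+/+ hosts. These genes were higher by a like amount in both pairs.

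Of the other genes high in Asbt-/- by that rule, Uqcc1, Smpd2 and Atp13a2 rested on few counts in Asbt+/+. Uqcc1, an assembly factor of respiratory complex III, had 48 and 55 counts in Asbt-/- libraries and 14 and 7 in Asbt+/+ libraries. Smpd2, a sphingomyelinase gene, had 56 and 45 counts in Asbt-/- libraries and 19 and 5 in Asbt+/+ libraries. Atp13a2, a lysosomal polyamine transporter gene, had 49 and 62 counts in Asbt-/- libraries and 26 and 12 in Asbt+/+ libraries. Lars2, the mitochondrial leucyl-tRNA synthetase gene, had 425 and 113 CPM in Asbt-/- hosts, against 64.5 and 34.4 CPM in Asbt+/+ hosts, highest by far in shMdr1 Asbt-/-. Rn18s-rs5 had 26304 and 16057 CPM in Asbt-/- hosts, against 3686 and 3125 CPM in Asbt+/+ hosts (log2 2.60 ± 0.57). The rule also named Mir6236, Rpap1, mt-Tp, Slc4a8, mt-Rnr2, mt-Tc and Spns1, and 11 of the 62 genes were mitochondrially encoded.

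**Figure D5:**
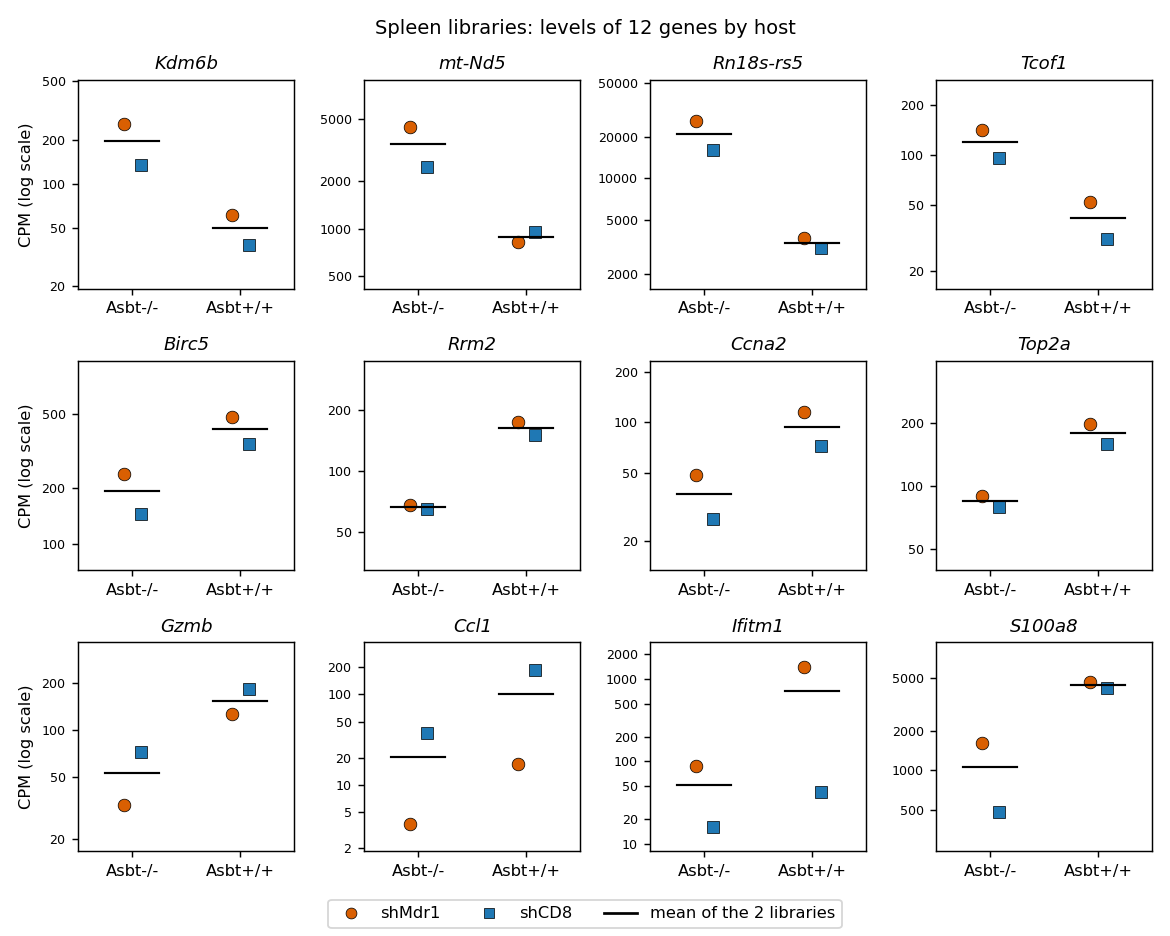
Level of 12 genes in the 4 spleen libraries, in CPM on log scales (circles shMdr1, squares shCD8, bars the mean of the 2 libraries of a host). The top row is higher in Asbt-/- (Kdm6b 257 and 134 CPM, against 61.2 and 38.3 CPM), the cell cycle genes of the middle row are lower in Asbt-/-, and in the bottom row Ccl1 and Ifitm1 overlap between hosts while Gzmb and S100a8 do not.

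Genes lower in Asbt-/- by the 2-fold rule included markers of other leukocytes. Of 11 tested neutrophil markers, 8 were lower and 0 higher in both pairs, and the list summed to 3073 and 873 CPM in Asbt-/- hosts, against 7779 and 6879 CPM in Asbt+/+ hosts. S100a8, a subunit of the neutrophil protein calprotectin, had 1622 CPM with shMdr1 and 481 CPM with shCD8 in Asbt-/- hosts, against 4711 and 4224 CPM in Asbt+/+ hosts (log2 -2.34 ± 0.70). Camp, a granule peptide gene, had 317 and 20.1 CPM in Asbt-/- hosts, against 579 and 565 CPM in Asbt+/+ hosts, and Wfdc21, an anti-protease domain gene of granulocytes, had 45.5 and 10.5 CPM in Asbt-/- hosts, against 159 and 93.3 CPM in Asbt+/+ hosts. For all 3, shCD8 Asbt-/- was the lowest library. Chil3, a chitinase-like gene of myeloid cells, had 13 and 0 counts in Asbt-/- libraries and 83 and 121 in Asbt+/+ libraries. The spleen libraries alone called 8 of 10 neutrophil markers lower, beside 0.834% of all genes tested there.

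Of 18 tested monocyte, macrophage and dendritic cell markers, 11 were lower and 0 higher in both pairs, and they summed to 364 and 533 CPM in Asbt-/- hosts, against 964 and 659 CPM in Asbt+/+ hosts. Lyz2, encoding lysozyme, had 50.5 and 85.2 CPM in Asbt-/- hosts, against 291 and 167 CPM in Asbt+/+ hosts. It and Fcer1g, the Fc receptor gamma chain gene, were called lower by the spleen libraries alone, 2 of 13 tested there. H2-Ab1, an MHC class II chain gene, had 26 and 23 counts in Asbt-/- libraries and 80 and 65 in Asbt+/+ libraries. Adgre1, encoding the macrophage marker F4/80, had 0 and 3 counts in Asbt-/- libraries and 25 and 17 in Asbt+/+ libraries. Wfdc17, an anti-protease domain gene of macrophages, had 13.5 and 12.4 CPM in Asbt-/- hosts, against 142 and 37.8 CPM in Asbt+/+ hosts. Markers of intestinal epithelium summed to 0 and 9.10 CPM in Asbt-/- hosts, against 126 and 46.0 CPM in Asbt+/+ hosts. Reg3b, an antimicrobial lectin of gut epithelium, had 0 counts in Asbt-/- libraries and 143 in Asbt+/+ libraries, at least 37.4-fold lower in Asbt-/-. Reg3g, its near copy, had 0 and 68 counts, at least 17.8-fold lower in Asbt-/-. The spleen libraries alone called both lower. In small intestine, 6 of the 10 tested epithelial markers were lower and 0 higher in both pairs. Medians there were -3.73 and -2.83. In spleen, erythroid markers summed to 41927 and 1164 CPM in Asbt-/- hosts, against 2329 and 5259 CPM in Asbt+/+ hosts. Of these, 12 of 13 had opposite signs in the spleen pairs. Hba-a2, a hemoglobin alpha chain gene, had 6591 and 191 CPM in Asbt-/- hosts, against 256 and 782 CPM in Asbt+/+ hosts. B cell, CD8 T cell and platelet lists had under 5 tested members. B cell markers summed to 80.6 and 151 CPM in Asbt-/- hosts, against 140 and 199 CPM in Asbt+/+ hosts. Of the defining genes, Ms4a1 and Pax5 had 0 counts in all 4 libraries, Cd79a had 0 and 0 in Asbt-/- libraries and 2 and 3 in Asbt+/+ libraries, and Blk had 0 and 0 in Asbt-/- libraries and 4 and 5 in Asbt+/+ libraries. Igkc, an immunoglobulin light chain gene, had 48 and 61.3 CPM in Asbt-/- hosts, against 78.3 and 107 CPM in Asbt+/+ hosts. Stromal and endothelial markers summed to 19.7 and 39.3 CPM in Asbt-/- hosts, against 10.8 and 20.6 CPM in Asbt+/+ hosts. The part of these other cells in the gene differences above was not tested.

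Other genes lower in Asbt-/- by the rule were Chsy1, a chondroitin synthase gene, with 24 and 8.62 CPM in Asbt-/- hosts, against 78.3 and 39.6 CPM in Asbt+/+ hosts, and Psat1, an enzyme of serine synthesis, with 15 and 25 counts in Asbt-/- libraries and 72 and 84 in Asbt+/+ libraries. The rule also named Vwa9, Dpy19l1, Shcbp1 and Cybb. In the small intestine, 14 of the 62 genes high in Asbt-/- had the same sign in both pairs and 17 the opposite sign in both. Of the 68 low genes, 16 had the same sign in both and 28 the opposite. The 2-fold rule itself was met in small intestine by 222 genes higher (2.22%) and 149 lower (1.49%), with 0 of the 62 and 3 of the 68 among those of the same direction.

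Host ratios leaned with transcript length. In quartiles of the longest GENCODE vM21 transcript, from short to long, median log2 ratios were -0.11, -0.04, 0.00 and 0.08 in the shMdr1 pair and -0.09, -0.01, 0.00 and 0.06 in the shCD8 pair. The share of genes higher in both pairs was 21.8, 26.2, 28.3 and 32.0% from short to long. The 62 high genes had a median length of 3487 bases, or 4161 bases without the mitochondrially encoded ones, and the 68 low genes of 2736 bases, beside 3246 bases over all tested genes. Median lengths were 1151 bases for ribosomal protein genes, 1698 bases for nuclear respiratory chain genes and 3358 bases for cell cycle genes. The cell cycle list was lower in both pairs for 6 of 7, 11 of 11, 13 of 13 and 6 of 7 members in the 4 quartiles. The part of transcript length in the differences of any list was not tested.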

How the data were processed

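RNA was measured in 8 libraries of sorted cells, 4 of them from spleen. Whole-number read counts per gene were deposited by the authors, 1 column per library, and 0 columns were left unmapped. Libraries combined a SMART-Seq v4 low-input kit with a NEBNext Ultra II kit, per the labels' protocols. The tools named in the submitters' processing notes are TopHat, HTSeq and DESeq2, with mouse build mm9. Their versions and roles, the strand setting and the annotation are not given in the sources, so overlapping, antisense and near-identical genes are uncertain.

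Of 37411 genes, 17570 had a count, and filterByExpr kept 10000, which held 99.5% of counts. These were fitted with the edgeR 4.0.16 quasi-likelihood model (R 4.3.3) on TMM-scaled counts of all 8 libraries, with hairpin and host effects within each tissue (2 residual degrees of freedom) and Benjamini-Hochberg adjustment over all tested genes at 0.05. The SE after ± is approximate, taken as the absolute log2 value over √F. Pair ratios are log2 CPM differences with a prior count of 2, without a test, since a pair has 1 library on each side. With 2 libraries against 2, an exact permutation test of 1 value cannot go below a two-sided p of 0.333. The steps were tested on simulated data with the same spread in both tissues, smaller than that over all 8 libraries here. The simulation therefore does not cover the unequal spread of the tissues, on which the number of calls turned.

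Genes named were up to 15 per direction with the largest smaller pair ratio among those past the 2-fold rule, up to 4 per list by smallest p, and 13 set genes. Predicted genes were left out of the first rule. Further genes are members of the lists, or were picked with their values known. Some genes these rules name are not reported here. The members and the 39 lists were chosen with earlier results of these data known. Alternatives were DESeq2 1.42.0, limma-voom (limma 3.58.1), other scalings, filters and prior counts, spleen libraries alone, and leaving out each library.

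The hairpins serve as the matched pairs of the host contrast, since the titles give the same hairpin to both hosts. No paired analysis by replicate number was possible because each group has 1 replicate.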

Additional observations from a re-analysis of the deposited data

Results flagged for a closer look

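The medians of 5 lists had opposite signs in spleen and small intestine in both hairpin pairs, shMdr1 before shCD8, as log2 ratios of Asbt-/- over Asbt+/+. These differences between tissues were not tested as lists. Cell cycle genes stood at -0.92 and -0.86 in spleen, against 1.33 and 1.83 in small intestine. Nuclear genes of the respiratory chain stood at -0.40 and -0.19 in spleen, against 0.45 and 0.67 in small intestine. Chemokine ligand genes stood at -0.71 and -0.68 in spleen, against 0.44 and 0.59 in small intestine. Markers of monocytes, macrophages and dendritic cells stood at -0.94 and -0.24 in spleen, against 0.10 and 0.57 in small intestine. Cholesterol and lipid genes stood at -0.14 and -0.12 in spleen, against 0.20 and 0.84 in small intestine. Over all tested genes the medians were -0.02 and -0.01 in spleen, against 0.01 and 0.53 in small intestine, so all genes together also had opposite signs. None of the 10000 genes passed for the difference between tissues after adjustment in edgeR.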

How the results depend on the processing

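The count of genes past the edgeR threshold was 0 with DESeq2 size factors, with no filter, with limma-voom and without mitochondrial, hemoglobin and Rn18s-rs5 counts. It was 12 higher and 5 lower in Asbt-/- by the DESeq2 Wald test, 80 and 75 with the spleen libraries alone, 2 and 1 with those and no replicate block (no hairpin term), and 65 and 71 without both small intestine Asbt+/+ libraries, a setting chosen after seeing the data. Leaving out 1 library gave 0 to 68 higher and 1 to 79 lower. Fits that lose a small intestine library take their spread from the single residual degree of freedom of the spleen. In fits that leave 1 spleen library in a hairpin pair, the hairpin term fits the lone library exactly. The spleen host value then compares 1 library with 1 library in the other pair. The spread in those fits comes from the small intestine libraries alone.

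The 62 genes higher and 68 lower by the 2-fold rule became 37 and 107 with total counts, 42 lower with a prior count of 10 (also 42 higher), 23 and 24 with at least 50 CPM, and 171 and 198 with at least 5 CPM. The 29 genes in opposite directions became 30 with DESeq2 size factors, 24 with total counts, 36 without mitochondrial, hemoglobin and Rn18s-rs5 counts, 14 with a prior count of 10, 5 with at least 50 CPM and 193 with at least 5 CPM. Total counts shifted the median of all genes by -0.26 and -0.13. They moved the cell cycle median to -1.11, and a prior count of 10 moved it to -0.79, both lower in Asbt-/-. The median of CD4 T cell markers turned to -0.12 with total counts, and that of NF-kB feedback genes stood at 0.021. With total counts, ribosomal protein genes stood at -0.47, against -0.28, and glycolysis genes at -0.33, against -0.14. Markers of monocytes, macrophages and dendritic cells stood at -0.40 with a prior count of 10, against -0.75.

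Ccr9, called lower without either shMdr1 small intestine library, was among 11 named genes that changed sign when 1 library was left out. Over those fits the log2 value ran from -0.47 to 0.24 for Abcb1a, -0.35 to 1.30 for Abcb1b, -3.01 to 0.28 for Ccr9, -0.33 to 0.29 for Foxp3, -2.04 to 4.68 for Hba-a2, -1.47 to 0.39 for Ifng, -0.54 to 0.034 for Il17a, -0.040 to 0.80 for Rora, -0.29 to 0.30 for Tbx21, -0.14 to 0.40 for Tnf and -0.37 to 0.031 for Cd4. Tbx21, at 0.02 with all libraries, also stood at -0.10 with limma-voom, -0.11 without the replicate block and -0.0066 without both small intestine Asbt+/+ libraries. The cause of these changes was not tested. At 1 library per combination, animal, sort and library preparation cannot be told apart from host.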
